A study of Mus musculus with 18 samples.

Results

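The 31 genes described here encode nucleolar factors that make ribosomes, and they were followed through chemical reprogramming of mouse fibroblasts to pluripotency. They were taken by name, from a list made with earlier results of these data known. All 31 were found by symbol among the 55401 Ensembl genes of the RNA-seq tables. By role, 6 belong to the RNA polymerase I machinery, 4 to box C/D and 5 to box H/ACA small nucleolar ribonucleoproteins (snoRNPs), 6 to small-subunit processing, 5 to large-subunit processing and 5 to more general nucleolar functions. All 31 passed the filter on low values and were tested among 16439 genes. Levels were lowest on days 6 and 12 for 24 of the 31 genes, and highest in the pluripotent lines for 26 of them. These counts, and the counts below of genes whose libraries did not overlap between groups, were made for the 31 alone. Their shares over all genes were not computed.

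The course started from mouse embryonic fibroblasts (D0) of E13.5 embryos from 129 and OG2 mice, kept in serum-containing medium. OG2 mice carry a fluorescent reporter under the Pou5f1 promoter. Cells in a chemical reprogramming medium were collected every 2 days until day 12 (D2 to D12). The names of the compounds in it are not given in the sources used here. The end points were induced pluripotent stem cells (riPSC) and embryonic stem cells of the R1 line (mESC), both grown on feeder cells with LIF, CHIR99021 and PD0325901. Each of the 9 groups held 2 bulk libraries. The labels do not say that these were independent cultures. The p-values therefore reflect library-to-library spread, which may be technical. Each group is a population, so a change in the proportion of cell types and a change in RNA per cell cannot be told apart.

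Ribosome production begins in the nucleolus, where RNA polymerase I transcribes the repeated ribosomal RNA (rRNA) genes into a long precursor. Box C/D snoRNPs methylate the precursor, box H/ACA snoRNPs convert uridines to pseudouridines, and separate sets of factors cut and fold it into the small and the large subunit. The pathway is known for its high activity in dividing cells and in embryonic stem cells, and Myc proteins are known activators of many of its genes.

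The fibroblasts carried Col1a1 RNA and no Pou5f1 RNA was listed. Pou5f1, a core pluripotency factor, stood at 44.9 and 45.4 FPKM on D8 and 528 and 558 FPKM on D12, and at 910.2 and 969.6 FPKM in riPSC and 855 and 941 FPKM in mESC. FPKM, fragments per kilobase and per unit of sequencing depth, is scaled per length and per library. The sum of 6 pluripotency markers was 1374 and 1412 FPKM on D12 and 4219.5 and 4474 FPKM in riPSC. Nanog, which marks established pluripotency, was at 1.76 and 1.76 FPKM on D12 and 273 and 275 FPKM in riPSC. The summed level of 5 extraembryonic endoderm markers was 771 and 797 FPKM on D12 against 7.72 and 8.86 FPKM in riPSC. The summed level of 5 myeloid markers was 69.3 and 61.8 FPKM in D0 and 5.95 and 5.60 FPKM on D2. Most of the D0 sum came from C1qa (40.7 and 28.5 FPKM) and C1qb (23.9 and 26.1 FPKM). Csf1r was also lower on D2, and Ptprc was near 0 in both groups. Cd68 overlapped, with 1.31 and 2.56 FPKM in D0 and 4.03 and 2.43 FPKM on D2. Transcripts of mitochondrial DNA made up 0.437% to 12.4% of the FPKM sum in the D0 and D4 libraries. In all others they made up 15.9% to 62.3% of it. Their reads count in the library total that scales every gene, but a share of the FPKM sum is not a share of reads. Weighting by exonic length comes nearer to reads. So weighted, the share was 18.6 and 18.2% on D12, 8.17 and 5.82% on D6 and 4.18 and 3.91% in riPSC. D2 replicate 2 was sequenced to an estimated 61.9 M read pairs, and the other 17 libraries to between 16.6 and 24.6 M.

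Summed over the 31 genes, FPKM was 2292 and 2367 in D0, 1576 and 2176 on D2, 1843 and 1873 on D4, 1015 and 1039 on D6, 1654 and 1697 on D8, 1688 and 1775 on D10 and 1120.0 and 1088 on D12. It was 3473 and 3559 in riPSC and 3607 and 3947 in mESC. The course thus had low points on D6 and D12 with a higher stretch between them, and all 4 stem cell libraries lay above all 14 others. Npm1 alone, encoding nucleophosmin, an abundant nucleolar chaperone, supplied 1417 and 1420.1 of the riPSC sums. In 25 of the 31 genes each of the 4 stem cell libraries exceeded each of the 12 libraries from D2 to D12. The exceptions were Polr1e, Fbl, Nhp2, Nop10, Bop1 and Nop16.

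**Figure D1:**
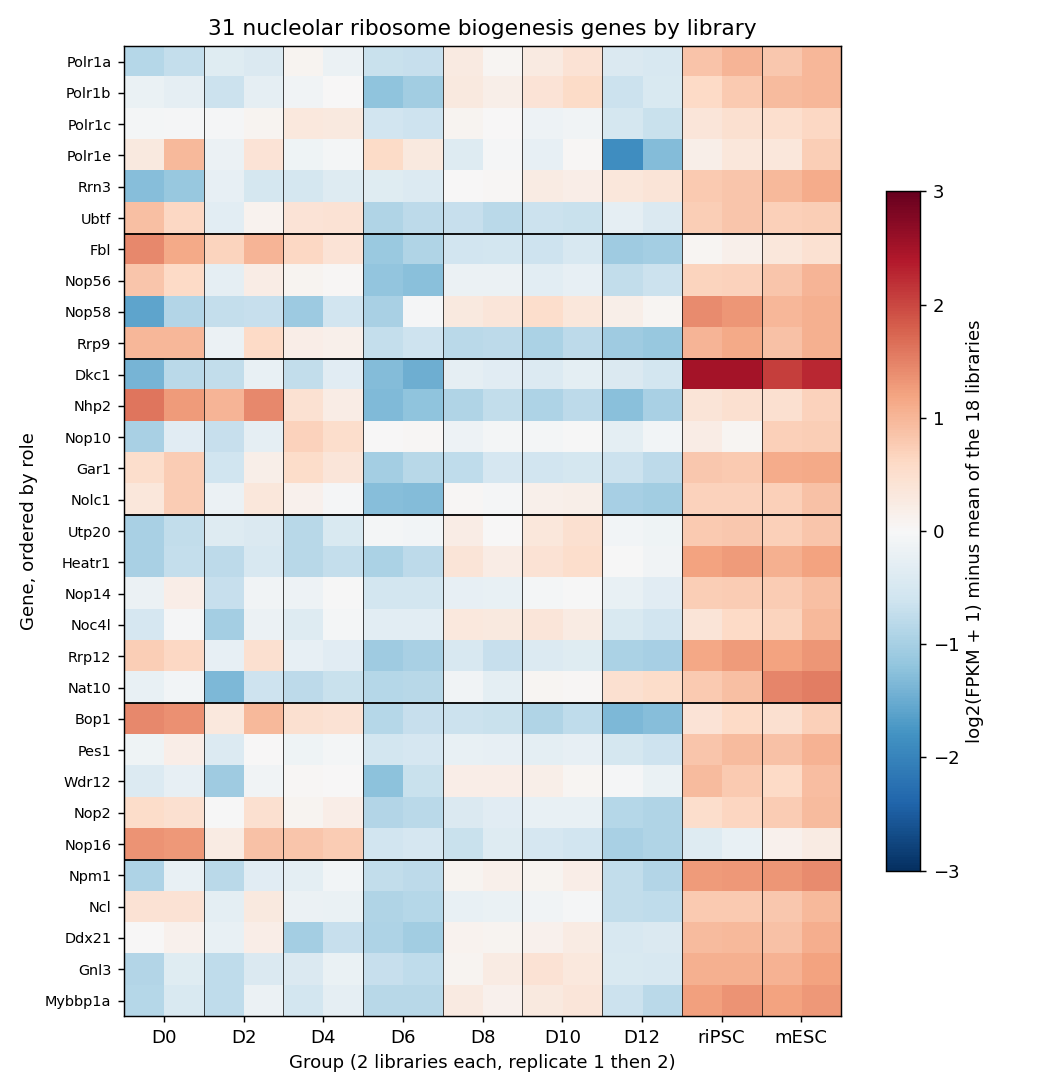
Level of each of the 31 genes in each of the 18 libraries, as log2(FPKM + 1) minus the gene's mean over the 18 libraries, with genes in rows ordered by role (lines separate the 6 roles) and groups in columns. Blue columns at D6 and D12 and red columns in riPSC and mESC run across most rows, while Fbl, Nhp2, Bop1 and Nop16 are reddest at D0.

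The promoters of Dkc1, Nop56 and Nop58 are shown because the RNA of these snoRNP genes took different courses from that of a partner in the same particle, as their values show. Of the 31 genes, 27 had an entry in a RefSeq promoter table of GRCm38.p6, and the 250 bases before the RefSeq start are printed on the gene's strand, which is the plus strand for all 3. Capitals mark a motif match on either strand, in Dkc1 of a TATA motif (TATAAA) and in Nop56 and Nop58 of a GC box (GGGCGG). Dkc1 is at chrX:75095604-75095853, Nop56 at chr2:130274162-130274411 and Nop58 at chr1:59684756-59685005.
Dkc1: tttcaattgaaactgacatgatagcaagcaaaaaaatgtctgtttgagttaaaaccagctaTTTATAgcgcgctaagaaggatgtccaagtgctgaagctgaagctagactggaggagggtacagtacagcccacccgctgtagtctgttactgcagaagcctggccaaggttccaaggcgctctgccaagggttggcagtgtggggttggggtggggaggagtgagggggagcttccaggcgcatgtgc
Nop56: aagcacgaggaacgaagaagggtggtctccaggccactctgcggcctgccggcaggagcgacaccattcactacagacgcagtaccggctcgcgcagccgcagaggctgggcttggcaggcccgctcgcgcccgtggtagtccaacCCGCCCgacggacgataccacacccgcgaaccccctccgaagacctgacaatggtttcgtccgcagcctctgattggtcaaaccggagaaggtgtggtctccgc
Nop58: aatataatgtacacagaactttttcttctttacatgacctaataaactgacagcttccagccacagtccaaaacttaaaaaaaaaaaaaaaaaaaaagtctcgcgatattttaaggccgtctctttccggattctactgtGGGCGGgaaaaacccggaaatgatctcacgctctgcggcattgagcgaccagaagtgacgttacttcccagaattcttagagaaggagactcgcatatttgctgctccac

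The motifs were chosen with the results known, and a match describes letters only. In these windows a GC box was present in 17 of 27 genes (63.0%) and in 45.8% of 17492 coding genes. The E-box that Myc proteins are known to bind (CACGTG) was present in 2 of 27 (7.41%), Nop2 and Rrn3, and in 7.61% of coding genes. An ETS-type motif (ACTTCCG) was in 6 of 27 (22.2%) and in 7.21% of coding genes, and the TATA motif was in 2 of 27 (7.41%) and in 13.7% of coding genes. Dkc1 lies on mm10 chromosome X from 75095854 to 75109777, Nop56 on chromosome 2 from 130274430 to 130279313, Nop58 on chromosome 1 from 59684971 to 59719044, Fbl on chromosome 7 from 28169710 to 28179269 and Nhp2 on chromosome 11 from 51619735 to 51623714. Dkc1 and Nhp2 share 45 and 44 exonic bases with opposite-strand protein-coding genes (Mpp1 and Rmnd5b), and 8 other of the 31 genes also share bases with such genes. The strandedness of the libraries is not given in the sources used here, so reads in those bases cannot be assigned. The shared bases made up 0.12% to 4.56% of the gene models. Exonic overlaps with genes that do not code for protein were not counted. The annotation places between 1 and 5 snoRNA genes inside each of Nop56, Nop58, Dkc1, Ncl and Gnl3.

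D6 compared with D4 was the first step with any of the 31 genes called lower in the main fit. The genes already leaned lower on D2, with a median log2 fold change over D0 of -0.26 against 0.24 over all genes. Some were called lower on D2 with median-of-ratios scaling and with the length trend removed, as given below. A gene was called where limma on log2(FPKM + 1) gave a difference of 2-fold or more with an adjusted p below 0.05, and rose and fell are used of such genes alone. On D6, 9 of 31 genes fell, where 6.86% of all 16439 genes did, and 0 rose, where 11.6% of all genes did. The median log2 fold change was -0.69 over the 31 genes and 0.07 over all genes, and in 24 of 31 both D6 libraries lay below both D4 libraries. No such count of separate libraries was made over all genes, here or in the later steps.

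Among the snoRNP genes, Nhp2, a core protein of the H/ACA particle, had 45.9 and 49.8 FPKM on D6 and 158 and 136 FPKM on D4 (log2 fold change -1.60 ± 0.17, limma adjusted p = 1.06e-05). Fbl encodes fibrillarin, the methyltransferase of the C/D particle, and its level was 74.3 and 87.0 FPKM on D6 and 251 and 216 FPKM on D4 (log2 fold change -1.52 ± 0.15, limma adjusted p = 4.84e-06). The groups did not overlap in either gene. Gar1, another H/ACA core protein, Nolc1, a chaperone of snoRNPs, and Nop56, a C/D core protein, also fell, by 1.39, 1.34 and 1.28 on the log2 scale. Nop58, the partner of Nop56 in the C/D particle, was not called, with 10.5 and 21.0 FPKM on D6 and 9.57 and 14.0 FPKM on D4, and its D6 libraries differed more from each other than those of any other of the 31 genes.

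In the polymerase group, Ubtf, which binds the rRNA gene promoter, had 23.7 and 25.6 FPKM on D6 and 59.4 and 60.6 FPKM on D4 (log2 fold change -1.25 ± 0.14, limma adjusted p = 1.60e-05). Polr1b, a catalytic subunit, had 5.17 and 5.93 FPKM on D6 and 12.3 and 13.3 FPKM on D4 (log2 fold change -1.08 ± 0.14, limma adjusted p = 4.41e-05). Both pairs were separate, although Polr1b was no longer called with a pseudocount of 5 or without D6 replicate 1. For large-subunit processing, Nop16 and Bop1, a member of the PeBoW complex, fell by 1.34 and 1.23 on the log2 scale. No gene of the small-subunit or general nucleolar groups was called, and Utp20, a small-subunit processing factor, was at 7.15 and 6.90 FPKM on D6 and 3.76 and 5.11 FPKM on D4 (log2 fold change 0.57 ± 0.13, limma adjusted p = 0.00363).

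The mitochondrial share was 44.2 and 35.4% of the FPKM sum on D6 and 6.42 and 12.4% on D4. After leaving out mitochondrial genes and rescaling, all 9 genes were still called. The summed level of 6 proliferation markers (Mki67, Top2a, Ccnb1, Birc5, Aurka and Mcm5) was 62.6 and 60.9 FPKM on D6 and 255 and 269.7 FPKM on D4. It moved with the 31 genes, and its part in the result was not tested. Myc did not move with them and had 22.5 and 25.9 FPKM on D6 and 15.4 and 19.8 FPKM on D4.

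On D8 compared with D6, 8 of 31 genes rose, where 15.1% of all genes did, and 0 fell, where 11.3% of all genes did. The median was 0.62 against 0.08 over all genes, and in 26 of 31 both D8 libraries were above both D6 libraries. Every role had at least 1 called gene. Polr1b had 16.3 and 15.0 FPKM on D8 and 5.17 and 5.93 FPKM on D6 (log2 fold change 1.35 ± 0.14, limma adjusted p = 3.66e-06). Nolc1 had 47.0 and 44.6 FPKM on D8 and 18.2 and 17.99 FPKM on D6 (log2 fold change 1.29 ± 0.17, limma adjusted p = 2.93e-05). Both genes had separate groups in this step, as they had in the step before it, and the D8 vs D6 and D6 vs D4 steps share the D6 libraries.

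Heatr1, a small-subunit processome component known to act in rRNA transcription, had 10.6 and 9.30 FPKM on D8 and 3.56 and 4.104 FPKM on D6 (log2 fold change 1.18 ± 0.13, limma adjusted p = 8.70e-06). Dkc1 encodes dyskerin, the pseudouridine synthase of the H/ACA particle, and had 16.9 and 16.0 FPKM on D8 and 7.75 and 6.76 FPKM on D6 (log2 fold change 1.08 ± 0.21, limma adjusted p = 6.86e-04). Wdr12, of the PeBoW complex, Ddx21, an RNA helicase, Nop56 and Mybbp1a, a nucleolar protein that binds Myb, rose by log2 fold changes of 1.16, 1.07, 1.04 and 1.03. Fbl and Nhp2, which had fallen on D6, were not called here, with 109 and 111 FPKM of Fbl and 61.8 and 68.5 FPKM of Nhp2 on D8. Nop16, Ubtf and Bop1 had log2 fold changes of only 0.02, 0.09 and 0.11.

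The number of calls depended on the settings. It was 1 (Nolc1) with a pseudocount of 5, 5 with median-of-ratios scaling, 6 without mitochondrial genes and 2 (Nolc1 and Polr1b) with the length trend removed. In the same order, 5.97%, 13.5%, 14.5% and 12.3% of all genes rose in these settings. The proliferation sum was 282 and 273 FPKM on D8 and 62.6 and 60.9 FPKM on D6, and the sum of 6 fibroblast markers was 423 and 415 FPKM on D8 and 1939 and 1935 FPKM on D6. Of the 6, Pdgfra had the opposite direction, with 108 and 102 FPKM on D8 and 88.9 and 82.2 FPKM on D6. The part of these markers in the result was not tested.

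**Figure D2:**
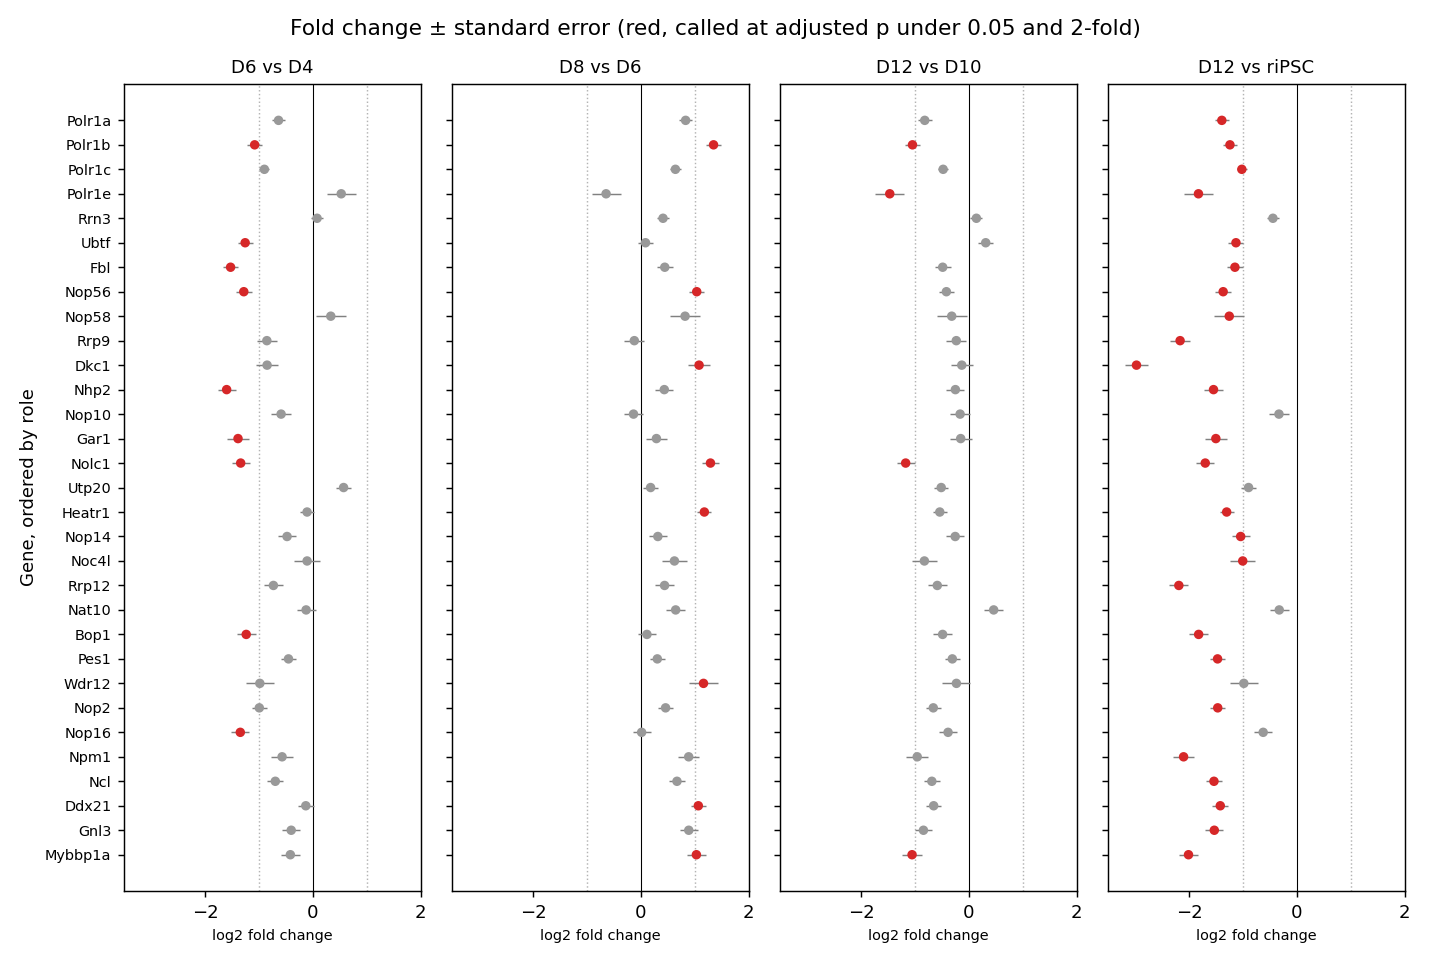
log2 fold change with its standard error for each of the 31 genes (rows, ordered by role) in D6 vs D4, D8 vs D6, D12 vs D10 and D12 vs riPSC. Red points mark called genes, dotted lines a 2-fold difference, and in the D12 vs riPSC panel all 31 points lie left of 0.

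Between D10 and D8 no gene of the 31 was called by limma, 1 had an unadjusted p under 0.05, and 0.426% of all genes rose and 2.43% fell. Log2 fold changes ran only between -0.17 and 0.30. On D12 compared with D10, 4 of 31 fell, where 4.68% of all genes did, and 0 rose, where 6.01% did. In 28 of 31 genes both D12 libraries were below both D10 libraries, and the median was -0.49 against -0.06 over all genes.

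Polr1e, a polymerase I-associated subunit, had 1.29 and 2.38 FPKM on D12 and 5.96 and 7.49 FPKM on D10 (log2 fold change -1.47 ± 0.27, limma adjusted p = 0.00113). Nolc1 had 22.6 and 21.9 FPKM on D12 and 50.9 and 52.1 FPKM on D10 (log2 fold change -1.17 ± 0.17, limma adjusted p = 1.58e-04). Mybbp1a and Polr1b fell by 1.05 each, and neither was called with median-of-ratios scaling, with the length trend removed or with a pseudocount of 5, which also ended the call of Polr1e. Nat10, which acetylates small-subunit rRNA, Ubtf and Rrn3, which brings polymerase I to its promoter, were the 3 genes with both D12 libraries above both D10 libraries, and none was called. The proliferation sum was 144 and 130.3 FPKM on D12 and 289.6 and 284 FPKM on D10. The mitochondrial share of the FPKM sum was 62.3 and 62.1% on D12 and 52.3 and 51.4% on D10. Myc was 1.81 and 2.25 FPKM on D12 and 18.4 and 18.5 FPKM on D10. The part of these in the result was not tested, and without mitochondrial genes 5 of the 31 fell, where 5.54% of all genes did.

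The pluripotent line differed from the end of the course in most of the genes. In D12 compared with riPSC, 25 of 31 genes were lower, where 19.8% of all genes were, and 0 were higher, where 16.7% were. In all 31 both D12 libraries lay below both riPSC libraries, with a median of -1.39 against -0.06 over all genes. The share of all genes with such separation was not computed. Called as lower were 5 of 6 polymerase I genes, 4 of 4 box C/D genes, 4 of 5 box H/ACA genes, 4 of 6 small-subunit genes, 3 of 5 large-subunit genes and 5 of 5 general nucleolar genes. Rrn3, Nop10, Utp20, Nat10, Wdr12 and Nop16 were not called.

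Dkc1 stood out by size. Its level was 15.0 and 13.7 FPKM on D12 and 119.8 and 119.8 FPKM in riPSC (log2 fold change -2.98 ± 0.21, limma adjusted p = 6.54e-08). Rrp12, known for its part in export of the small subunit, had 3.93 and 3.80 FPKM on D12 and 20.4 and 22.0 FPKM in riPSC (log2 fold change -2.19 ± 0.18, limma adjusted p = 3.13e-07). Rrp9, a C/D protein of the particle that guides the first cuts of the precursor, had 19.2 and 18.3 FPKM on D12 and 84.1 and 91.4 FPKM in riPSC (log2 fold change -2.17 ± 0.18, limma adjusted p = 4.41e-07). No library of one group reached the other in these genes.

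Npm1 had 347 and 313 FPKM on D12 and 1417 and 1420.1 FPKM in riPSC (log2 fold change -2.10 ± 0.20, limma adjusted p = 1.26e-06). Whether reads of Npm1 were shared with copies of the gene elsewhere was not examined, so this value is uncertain. Mybbp1a had 42.9 and 38.2 FPKM on D12 and 159.7 and 173 FPKM in riPSC (log2 fold change -2.01 ± 0.18, limma adjusted p = 7.53e-07). Gnl3, encoding nucleostemin, a GTP-binding protein known from stem cells, Ncl, encoding nucleolin, and Ddx21 were lower by log2 fold changes of -1.53, -1.54 and -1.42. Fibrillarin (Fbl), at 77.4 and 80.1 FPKM on D12 and 170.0 and 182 FPKM in riPSC, differed less (log2 fold change -1.15 ± 0.15, limma adjusted p = 1.73e-05). The remaining called genes lay between -1.01 for Noc4l, a small-subunit factor, and -1.83 for Polr1e. Pes1, which joins Bop1 and Wdr12 in the PeBoW complex, and Nop2, an rRNA methyltransferase of the large subunit, were both at -1.47. Polr1c, a subunit shared with RNA polymerase III, and Nop14, of the small-subunit processome, were nearest the threshold beside Noc4l, at -1.02 and -1.04. Nop10, an H/ACA core protein, was at 33.0 and 38.4 FPKM on D12 and 47.7 and 42.7 FPKM in riPSC, and Nat10 at 22.7 and 24.0 FPKM on D12 and 28.3 and 30.9 FPKM in riPSC.

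Between 20 and 25 of the 31 remained called as lower under the other scalings and pseudocounts, and 22 to 26 were called when single libraries were left out. The proliferation sum was 144 and 130.3 FPKM on D12 and 557 and 588 FPKM in riPSC. The fibroblast marker sum over 6 genes was 695 and 713 FPKM on D12 and 72.1 and 76.8 FPKM in riPSC. Its D12 level came mainly from Col1a1, Col1a2, Col3a1 and Pdgfra, and Pdgfra was at only 2.18 and 2.89 FPKM in D0. Thy1 was at 6.77 and 7.02 FPKM on D12 and 147 and 173 FPKM in D0. Pdgfrb was at 1.99 and 2.14 FPKM on D12 and 1.71 and 1.66 FPKM in riPSC. The mitochondrial share of the FPKM sum was 62.3 and 62.1% on D12 and 28.1 and 27.0% in riPSC. Without mitochondrial genes 23 were lower, where 19.2% of all genes were. Mycn was 5.50 and 5.33 FPKM on D12 and 45.1 and 48.1 FPKM in riPSC, while Myc was 1.81 and 2.25 FPKM on D12 and 1.08 and 1.03 FPKM in riPSC. The part of these markers in the difference was not tested.

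**Figure D3:**
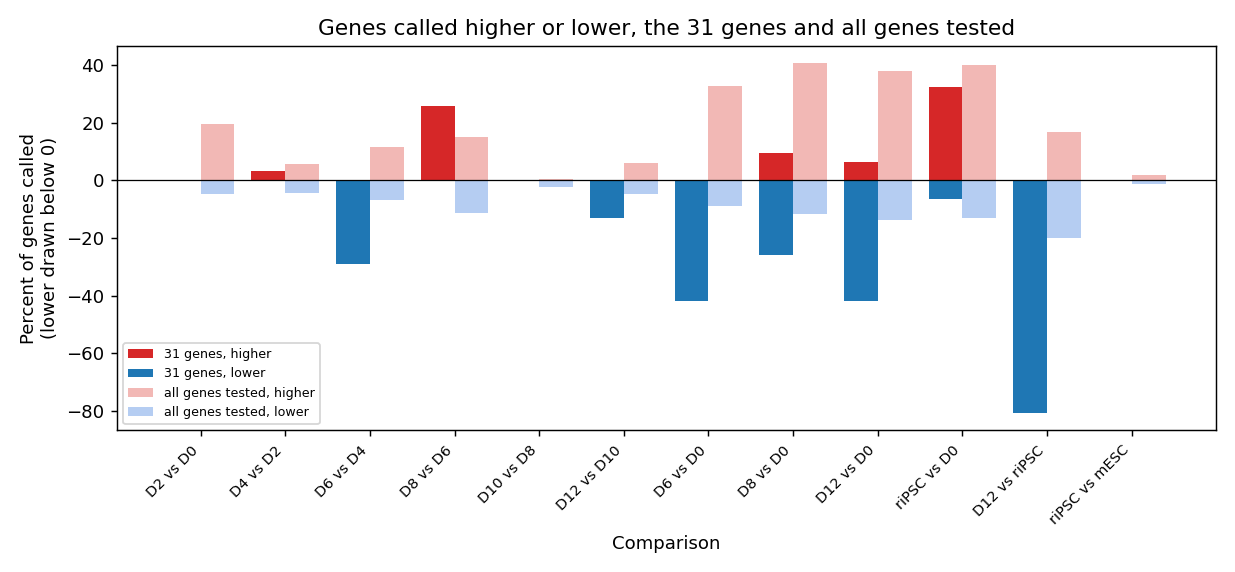
Percent of the 31 genes (dark bars) and of all 16439 genes tested (pale bars) called higher (above 0) or lower (below 0) in each of 12 comparisons. In D12 vs riPSC 25 of the 31 genes are lower and none is higher, and against D0 a large share of all genes is called higher.

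riPSC compared with mESC gave no call among the 31 genes by limma, where 1.84% of all genes were higher and 1.20% lower. Of the 31, 3 had an unadjusted p under 0.05. Log2 fold changes ran from -0.66 to 0.34 with a median of -0.10, and in 14 genes the libraries of the 2 lines overlapped. Nat10 lay at the low end, with 28.3 and 30.9 FPKM in riPSC and 45.9 and 48.8 FPKM in mESC (log2 fold change -0.66 ± 0.18, limma adjusted p = 0.0283), short of 2-fold. Dkc1 had 119.8 and 119.8 FPKM in riPSC and 89.0 and 102 FPKM in mESC (log2 fold change 0.33 ± 0.21, limma adjusted p = 0.397). A p that misses the threshold does not show that the lines are alike.

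Relative to the starting fibroblasts the 31 genes divided. In riPSC compared with D0, 10 rose, where 40.1% of all genes did, and 2 fell, where 13.0% did, so the share that rose was below that of all genes. The median was 0.77 against 0.62 over all genes. Dkc1 rose most, with 119.8 and 119.8 FPKM in riPSC and 7.16 and 11.2 FPKM in D0 (log2 fold change 3.60 ± 0.21, limma adjusted p = 8.16e-09). Nop58 had 59.1 and 54.9 FPKM in riPSC and 6.49 and 11.1 FPKM in D0 (log2 fold change 2.60 ± 0.28, limma adjusted p = 2.21e-06). Rrn3 had 41.7 and 43.4 FPKM in riPSC and 9.32 and 10.3 FPKM in D0 (log2 fold change 2.01 ± 0.11, limma adjusted p = 6.16e-09). The other called genes that were higher were Heatr1, Mybbp1a, Npm1, Polr1a (the largest polymerase subunit), Gnl3, Utp20 and Wdr12.

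Nop16 and Fbl went the other way. Nop16 had 22.6 and 25.2 FPKM in riPSC and 77.5 and 74.7 FPKM in D0 (log2 fold change -1.63 ± 0.17, limma adjusted p = 1.77e-06). Fbl had 170.0 and 182 FPKM in riPSC and 447 and 356 FPKM in D0 (log2 fold change -1.18 ± 0.15, limma adjusted p = 9.26e-06). Polr1e, Fbl, Nhp2, Bop1 and Nop16 had their highest group mean in D0.

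Comparisons with D0 depended on gene length. Over coding genes with at least 8000 exonic bases the median log2 fold change of riPSC over D0 was 1.23, and over those with 1000 to 2000 bases it was 0. With the length trend removed 5 of the 31 rose and 5 fell in riPSC, where 22.2% of all genes rose and 23.2% fell. With median-of-ratios scaling 8 rose and 5 fell, where 29.4% of all genes rose and 20.9% fell. In the same order, the medians were -0.03 and 0.06 over the 31 and -0.07 and 0.20 over all genes. Quantile normalization gave 7 that rose and 2 that fell, where 22.5% of all genes rose and 21.3% fell. Wdr12, Gnl3, Heatr1, Polr1a, Utp20 and Fbl lost their call under at least 1 of these 3. Dkc1, Nop58, Rrn3, Mybbp1a, Npm1 and Nop16 kept theirs under all 3. Ribosomal protein genes, which are short, took 11.6 and 11.6% of the FPKM sum in riPSC and 31.2 and 26.2% in D0.

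On D6, D8 and D12 the genes called below their D0 level outnumbered those called above it. On D6 compared with D0, 13 of 31 fell, where 8.79% of all genes did, and 0 rose, where 32.8% did. On D8 compared with D0, 8 fell and 3 rose (Nop58, Rrn3 and Heatr1), where 11.8% of all genes fell and 40.6% rose. On D12 compared with D0, 13 fell and 2 rose (Rrn3 and Nop58), where 13.8% of all genes fell and 38.0% rose. With the length trend removed 17, 14 and 17 fell and 0 rose in these 3 comparisons, where 15.7%, 20.2% and 21.6% of all genes fell and 16.1%, 20.5% and 22.7% rose. With median-of-ratios scaling 13 fell and 0 rose on D8, where 19.6% of all genes fell and 30.2% rose. Without D0 replicate 2, which leaves 1 library in D0, the genes called lower on D8 no longer outnumbered those called higher. Among all genes, more were called higher than lower in that fit too. Bop1 had 11.4 and 12.04 FPKM on D12 and 85.6 and 81.8 FPKM in D0 (log2 fold change -2.74 ± 0.17, limma adjusted p = 2.09e-08), and Nhp2 had 48.2 and 59.0 FPKM on D12 and 354 and 282 FPKM in D0 (log2 fold change -2.54 ± 0.17, limma adjusted p = 3.20e-08).

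The first 4 days brought few calls. On D2 compared with D0 limma called 0 of 31, while 19.5% of all genes rose and 4.63% fell. The median log2 fold change was -0.26 over the 31 genes and 0.24 over all genes. Of the 31, 16 had an unadjusted p under 0.05 and 15 an adjusted p under 0.05 with less than a 2-fold difference. The all-gene shares depended on the spread taken from the other groups. In a fit of the D0 and D2 libraries alone 0 of 31 were called, while 0.389% of all genes rose and 0.146% fell. The D2 libraries disagreed: the median difference between them was 0.49 on the log2 scale over the 31 genes and 0.24 over all genes. With the length trend removed 7 genes fell, where 8.15% of all genes did, with medians of -0.55 and -0.08. With median-of-ratios scaling 7 fell, where 9.19% of all genes did, with medians of -0.65 and 0.05. More of the 31 were also called lower without D2 replicate 2, the deeply sequenced library, which leaves 1 library on D2. Summed over the 31 genes, D2 replicate 1 had 1576 FPKM and D2 replicate 2 had 2176 FPKM, against 2292 and 2367 FPKM in D0. On D4 compared with D2, 1 of 31 rose, where 5.66% of all genes did, and 0 fell, where 4.48% did. It was Nop10, with 66.5 and 59.8 FPKM on D4 and 25.2 and 33.6 FPKM on D2 (log2 fold change 1.09 ± 0.18, limma adjusted p = 8.04e-04), and it was not called with a pseudocount of 5, with median-of-ratios or quantile scaling, with the length trend removed, in a fit of these 4 libraries alone or without D2 replicate 1. With median-of-ratios scaling and with the length trend removed 0 genes rose and 1 fell in that step. In the fit of the D2 and D4 libraries alone 0 of 31 were called, where 1.14% of all genes rose and 0.912% fell.

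Across the whole course, single genes took different paths. Rrn3 was lowest in D0 and stood higher on the later days, and its FPKM values were D0 9.32 and 10.3, D2 20.2 and 16.2, D4 16.2 and 17.97, D6 18.5 and 17.7, D8 24.2 and 24.7, D10 28.6 and 27.5, D12 30.5 and 31.4. It was at 41.7 and 43.4 FPKM in riPSC and 48.3 and 52.7 FPKM in mESC. Only D2, D4 and D6 overlapped among the days. Fbl was highest in D0, and its FPKM values were D0 447 and 356, D2 261 and 332, D4 251 and 216, D6 74.3 and 87.0, D8 109 and 111, D10 105 and 116, D12 77.4 and 80.1. It was at 170.0 and 182 FPKM in riPSC and 207 and 223 FPKM in mESC.

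Polr1e followed no steady course, with FPKM values of D0 9.17 and 15.2, D2 6.37 and 10.08, D4 6.53 and 6.999, D6 11.3 and 9.22, D8 5.32 and 7.14, D10 5.96 and 7.49, D12 1.29 and 2.38. It had a log2 fold change of 0.53 in D6 vs D4 and -0.64 in D8 vs D6, neither of them called. Its 2 libraries differed widely in D0 and D2, and it was the gene with the largest difference between libraries on D8, D10 and D12 and in mESC.

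**Figure D4:**
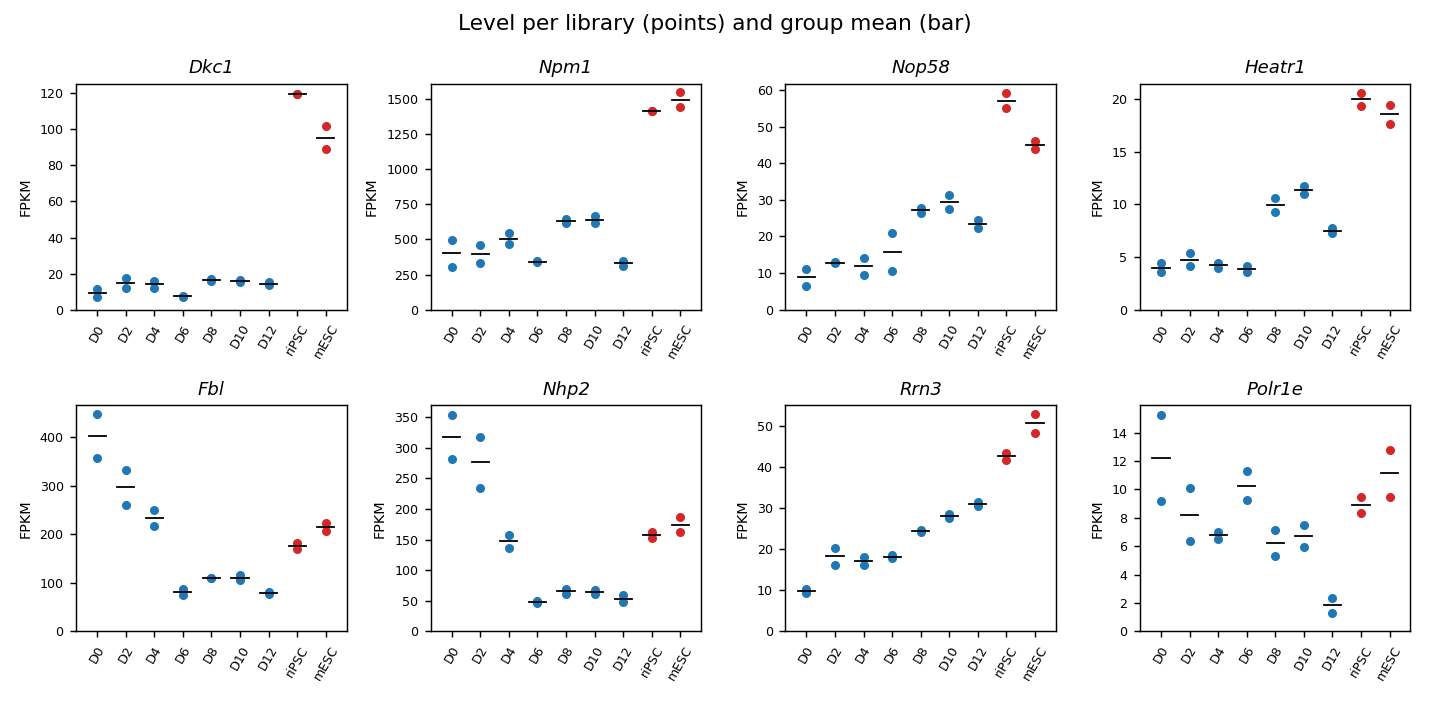
FPKM of 8 genes in each library (points; blue for D0 to D12, red for riPSC and mESC) with the group mean as a bar, each panel on its own linear axis from 0. Dkc1, Npm1, Nop58 and Heatr1 are far higher in the stem cell lines than at D12, Fbl and Nhp2 are highest at D0, Rrn3 stands higher at each later stage from D6 on, and Polr1e is lowest at D12.

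Partners in 1 particle did not keep 1 ratio. Within the H/ACA particle, the FPKM ratio of Dkc1 over Nhp2 was 0.0202 and 0.0398 in D0, 0.169 and 0.136 on D6, 0.312 and 0.232 on D12, 0.785 and 0.735 in riPSC and 0.549 and 0.546 in mESC. Within the C/D particle, the ratio of Nop58 over Nop56, both with a GC box before the start, was 0.0303 and 0.0612 in D0, 0.203 and 0.423 on D6, 0.341 and 0.296 on D12, 0.311 and 0.286 in riPSC and 0.205 and 0.189 in mESC. Both ratios were lowest in D0, and no test was run on them. Ratios within a library are untouched by scaling but not by the length trend, and the Dkc1 gene model has 4121 exonic bases and that of Nhp2 1146. The Nop58 model has 10758 and that of Nop56 4099, so in both ratios the longer gene is on top.

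**Figure D5:**
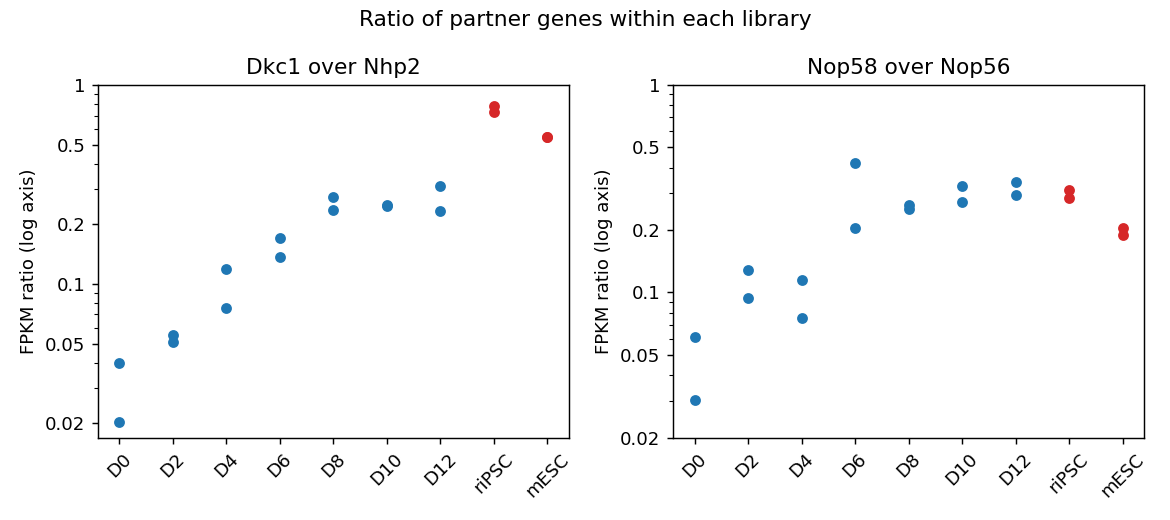
FPKM ratio of Dkc1 over Nhp2 and of Nop58 over Nop56 in each library (points, blue for D0 to D12, red for riPSC and mESC) on a log axis. Both ratios are lowest at D0. The first is highest in riPSC, and the second spans a wide range between the 2 libraries of D6.

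The wider pathway was read from 118 other ribosome biogenesis genes. On D6 compared with D4, 10 of these fell (8.47%, against 6.86% of all genes) and 1 rose (0.847%, against 11.6%), with a median of -0.43. The share that fell was thus near that of all genes. Rrp15, a large-subunit factor, had 10.196 and 9.60 FPKM on D6 and 39.0 and 38.0 FPKM on D4 (log2 fold change -1.86 ± 0.16, limma adjusted p = 2.68e-06). Of the 10 that fell, 5 were among 14 nuclear exosome genes, 4 among 52 large-subunit genes, 1 among 45 small-subunit genes and 0 among 7 polymerase I genes. On D8 compared with D6, 19 rose (16.1%, near the 15.1% of all genes) and 0 fell (against 11.3%), with a median of 0.50. One of them was Wdr43, a small-subunit processome protein, with 31.2 and 30.0 FPKM on D8 and 11.4 and 10.6 FPKM on D6 (log2 fold change 1.39 ± 0.13, limma adjusted p = 1.88e-06). The number that rose was 13 with median-of-ratios scaling and 9 with the length trend removed, where 13.5% and 12.3% of all genes rose. On D12 compared with D10, 3 fell (2.54%, below the 4.68% of all genes) and 0 rose (against 6.01%), with a median of -0.38. Rrp1b was 1 of the 3 and fell by 1.71 on the log2 scale.

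In D12 compared with riPSC, 60 of the 118 were lower (50.8%, against 19.8% of all genes) and 0 higher (against 16.7%), with a median of -1.01. Tcof1, encoding treacle, a polymerase I cofactor, had 12.5 and 12.23 FPKM on D12 and 78.4 and 87.5 FPKM in riPSC (log2 fold change -2.65 ± 0.19, limma adjusted p = 1.14e-07). Rrp1b had 3.96 and 2.87 FPKM on D12 and 33.5 and 38.0 FPKM in riPSC (log2 fold change -3.07 ± 0.18, limma adjusted p = 1.52e-08). With median-of-ratios scaling the count was 40 lower and with the length trend removed 48, where 15.8% and 17% of all genes were lower. In riPSC compared with D0, 54 rose (45.8%, near the 40.1% of all genes) and 11 fell (9.32%, against 13.0%). With the length trend removed 25 rose and 20 fell, where 22.2% and 23.2% of all genes did. In riPSC compared with mESC, 1 of 118 was called, Dis3, an exosome nuclease, with 18.9 and 20.3 FPKM in riPSC and 42.0 and 44.5 FPKM in mESC (log2 fold change -1.10 ± 0.17, limma adjusted p = 9.56e-04).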

How the data were processed

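RNA was sequenced on a NovaSeq instrument (150 bp reads), per the labels' protocols. The submitters' processing notes name fastp 0.20.1, HISAT2 2.2.1, StringTie 2.0 and the mm10 build. The deposited values are FPKM, 1 table per library. The labels do not state the unit, which was read from the values, and the annotation release is not given in the sources used here. Depth was estimated from the value of 1 read, taken as 1 mate of a pair, in 12564 single-exon genes. Of their low values only 11.0% to 28.2% lay on a step within 0.03 of a whole number, with the lowest share in D2 replicate 2. The depth is therefore approximate, most of all for that library, and no counts were recovered.

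Symbols and exonic lengths came from a GENCODE annotation of GRCm38. The deposited FPKM values were put on the log2(FPKM + 1) scale, which understates the change of low genes. Genes with at least 1 FPKM in at least 2 libraries were tested with limma 3.58.1 (R 4.3.3), with all 18 libraries in 1 fit, a mean for each group and 9 residual degrees of freedom, eBayes without a trend and two-sided p-values adjusted by Benjamini-Hochberg over the 16439 genes within each of 12 comparisons. Errors are standard errors. Where a group has 2 values joined by and, they are replicate 1 and replicate 2. In simulated data for riPSC vs D0, 38% of 50 genes at a log2 fold of 1 were called, 90% at 2, 100% at 3 and 98% at 4, and 3 unchanged genes were called. A log2 fold of 1 is the threshold itself, so many such genes miss it whatever the power. The simulation set all groups to the D0 means and gave each gene the same spread in every group. The real median difference between libraries was 0.28 in D0 and 0.10 in riPSC. The shares therefore check the procedure and do not give its power in this comparison. Libraries with the same number did not deviate together, so the numbers were not used as pairs.

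The members, the roles, the marker lists and the 122 other pathway genes (118 found in the tables) were chosen with earlier results of these data known. Any member may be named, as may marker genes and, of the other pathway genes, the 3 highest and 3 lowest called per comparison. Groups came from the sample titles, and no library was left out. Alternatives were other pseudocounts, filters, scalings and moderation, subtraction of a smooth curve over exonic length from each library, fits of fewer libraries, a replicate block and no fold threshold.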

Additional observations from a re-analysis of the deposited data

How the results depend on the processing

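The number of the 31 genes called was recomputed under each alternative. It stayed within 1.5 times the count reported for D12 vs riPSC in every alternative run, and for D6 vs D4, D6 vs D0, D12 vs D0 and riPSC vs D0 in all except the one without a fold threshold. Without a fold threshold the counts were 15 for D2 vs D0, 7 for D4 vs D2, 22 for D6 vs D4, 20 for D8 vs D6, 18 for D12 vs D10, 23 for D6 vs D0, 25 for D8 vs D0, 25 for D12 vs D0, 24 for riPSC vs D0 and 1 for riPSC vs mESC. Of all genes, 40.3% were then higher and 13.4% lower in D2 vs D0, and 18.9% and 12.4% in D4 vs D2. The shares were 27.5% and 20.3% in D6 vs D4, and 32.5% and 24.2% in D8 vs D6. They were 16.5% and 18.9% in D12 vs D10, and 52.7% and 17.2% in D6 vs D0. In D8 vs D0 they were 58% and 19.9%, and in D12 vs D0 53.6% and 22.3%. In riPSC vs D0 they were 54.5% and 21%, and in riPSC vs mESC 7.45% and 5.18%. For D2 vs D0 the count was 7 with median-of-ratios scaling (9.19% of all genes were lower), 1 with quantile normalization (8.81%) and 7 with the length trend removed (8.15%). All of these calls were lower. For D4 vs D2 it was 0 with a pseudocount of 5, with quantile normalization and with only the libraries compared. For D8 vs D6 it was 1 with a pseudocount of 5 (5.97% of all genes were higher), 5 with median-of-ratios scaling (13.5%) and 2 with the length trend removed (12.3%). For D12 vs D10 it was 1 with a pseudocount of 5 (1.2% of all genes were lower), and 2 both with median-of-ratios scaling (3.5%) and with the length trend removed (3.87%). With that trend removed, 49 of the 372 log2 fold changes (31 genes in 12 comparisons) had the other sign, 10 of them in riPSC vs D0, 9 in D8 vs D0 and 0 in D12 vs riPSC. Other signs numbered 33 with median-of-ratios scaling and 28 with quantile normalization. Of the 49, 3 were called before or after the removal: Heatr1 in D8 vs D0 (-0.027), Wdr12 in D12 vs D0 (-1.08) and Wdr12 in riPSC vs D0 (-0.079). The removal subtracts a curve over exonic length, and other causes were not tested. Leaving out single libraries gave 0 to 7 calls for D2 vs D0, 1 to 3 for D4 vs D2, 8 to 11 for D6 vs D4, 7 to 8 for D8 vs D6, 0 to 0 for D10 vs D8, 3 to 5 for D12 vs D10, 12 to 14 for D6 vs D0, 11 to 18 for D8 vs D0 (18 without D0 replicate 2, 9 higher and 9 lower), 14 to 15 for D12 vs D0, 12 to 16 for riPSC vs D0, 22 to 26 for D12 vs riPSC and 0 to 0 for riPSC vs mESC. A group left with 1 library was assumed to vary like the others. With the replicate number as a block no count changed (0 for D2 vs D0, 1 for D4 vs D2, 9 for D6 vs D4, 8 for D8 vs D6, 25 for D12 vs riPSC), and the deviations of same-numbered libraries correlated between -0.23 and 0.27 (median 0.0074, 36 pairs of groups). Leaving the D0, D2 and D4 libraries out of the fit, a choice made after seeing the data, kept all calls in the 5 comparisons it allows.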
